A study of Mus musculus with 10 samples.

Results

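The tricarboxylic acid (TCA) cycle genes Cs, Idh3a, Idh3b, Idh3g, Ogdh, Dlst, Suclg1, Fh1 and Mdh2 were followed in livers of ethanol-fed mice, as the 9 rows of the deposited gene table that carry these names, out of 55401 genes. All 9 passed a filter of a mean of at least 0.5 FPKM (fragments per kilobase of transcript, scaled to sequencing depth). With the targeted gene Map3k14 kept although its mean was under this filter, 12731 genes were tested. RNA came from 5 livers labelled NIKhKO and 5 labelled NIKflox, and all 10 mice had been on a Lieber-DeCarli liquid diet, an ethanol-containing liquid food, at 5% ethanol over 4 weeks. Map3k14 is the gene for NIK, a kinase upstream of non-canonical NF-kB signalling, and the series title and design text speak of hepatic NIK and of NIKHKO and NIKF/F mice. The promoter that drives any recombinase, the part of the gene removed, and the age and sex of the mice were not stated in the sources used here, and no group without ethanol was analysed here. The labels number the mice of each genotype without saying whether litters, cages or preparation days differed. The p-values therefore reflect the spread among these 10 libraries and nothing wider.

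The cycle runs in the mitochondrial matrix, where it burns acetyl-CoA to carbon dioxide and passes the electrons to the respiratory chain. In the liver its intermediates also leave for glucose, amino acid and fatty acid synthesis, and citrate exported to the cytosol is the source of acetyl-CoA for lipid synthesis. Ethanol oxidation makes NADH and acetate, and a high ratio of NADH to NAD is known to slow the dehydrogenases of the cycle. Only RNA was measured, and enzyme amount, activity and flux were not.

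The promoters of Cs and Suclg1 are shown because these 2 genes had log2 fold changes of opposite sign and the most opposed FPKM levels over the 10 libraries. Other pairs were more opposed on another scaling, as given further on. Both sequences are from RefSeq on GRCm38.p6, plus strand, at chr10:128337477-128337726 for Cs and chr6:73248255-73248381 for Suclg1. The Cs window is the 250 bases before the RefSeq start, and that of Suclg1 is shown as its first 127 bases, up to the gene start of the deposited table. Capitals mark matches to GGGCGG (the Sp1 GC box) or CCAAT (the CCAAT box) on either strand.
Cs: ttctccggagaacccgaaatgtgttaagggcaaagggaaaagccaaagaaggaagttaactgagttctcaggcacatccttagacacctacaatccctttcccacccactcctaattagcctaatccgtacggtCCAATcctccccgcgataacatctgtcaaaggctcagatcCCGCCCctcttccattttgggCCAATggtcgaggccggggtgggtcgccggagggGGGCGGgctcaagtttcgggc
Suclg1: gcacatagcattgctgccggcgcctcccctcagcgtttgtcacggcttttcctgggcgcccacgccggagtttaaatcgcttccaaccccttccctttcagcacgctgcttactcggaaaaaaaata

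The RefSeq table held such a window for 8 of the 9 genes, all but Idh3a, with several windows for Ogdh. Ogdh was counted when any of its windows matched. The percentages below count single windows, so they are no direct yardstick for the counts of genes. GGGCGG was found in the windows of 5 of these 8 genes, Cs, Ogdh, Dlst, Fh1 and Mdh2, and in 32.7% of all 32851 promoter windows of the same 250 bases. CCAAT was found for 4 of the 8, Cs, Idh3b, Ogdh and Fh1, and in 33.8% of all windows. AAGGTCA, a motif of the estrogen-related receptors, was searched on both strands and matched in 0 of the 8 and in 4.08% of all windows. The palindromic NRF1 motif also matched in 0 of the 8, and in 3.74% of all windows. A match describes letters and is not a bound site.

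Total estimated counts ran from 53225028 to 64321202 in the NIKhKO libraries and from 47161869 to 65052525 in the NIKflox libraries, and the 9 genes had between 1906 and 18189 counts per library. Map3k14, the targeted gene, read 0.347, 0.361, 0.443, 0.389 and 0.373 FPKM in NIKhKO livers, against 0.553, 0.510, 0.585, 0.899 and 0.483 FPKM in NIKflox livers. Each NIKhKO library was lower than each NIKflox library, while the edgeR adjusted p over all genes was 0.33. Heart muscle markers (12 genes) summed to 1.70 to 4.19 FPKM in NIKhKO libraries and 3.62 to 40.3 FPKM in NIKflox libraries, with NIKflox 4 at 40.3 and NIKflox 2 at 11.5 FPKM. Heart muscle is rich in mitochondria, so results are also given without these 2 libraries. Hepatocyte markers were high in every library, with Alb, serum albumin, between 24796 and 36394 FPKM. In whole liver, fewer cells of a type and less RNA per cell cannot be told apart.

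By edgeR's quasi-likelihood test, 0 of the 9 genes passed an adjusted p of 0.05 over all 12731 genes, of which 3 passed (0.0236%). At an unadjusted p below 0.05 there were 2 of the 9, Suclg1 and Dlst, beside 10% of all genes tested. Both were higher in NIKhKO, as were 4.85% of all genes at that p. Log2 fold changes, NIKhKO minus NIKflox, were positive for 6 of the 9 genes and for 48.2% of all genes, with a median of 0.07 over the 9 and −0.01 over all genes. Other tools differed for 1 gene. DESeq2 called 1 of the 9, Suclg1 (higher, adjusted p = 0.021), and 1.63% of all genes. limma on log2(FPKM + 1) called 0 of the 9. Before adjustment its p was under 0.05 for Cs (log2 difference −0.24) and Suclg1 (0.26), 2 of the 9, and for 10.9% of all genes, and it was 0.062 for Dlst. FPKM values are scaled by library total, while fold changes rest on counts scaled by the trimmed mean of M-values (TMM), so a ratio of FPKM means can differ from the fold change.

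**Figure D1:**
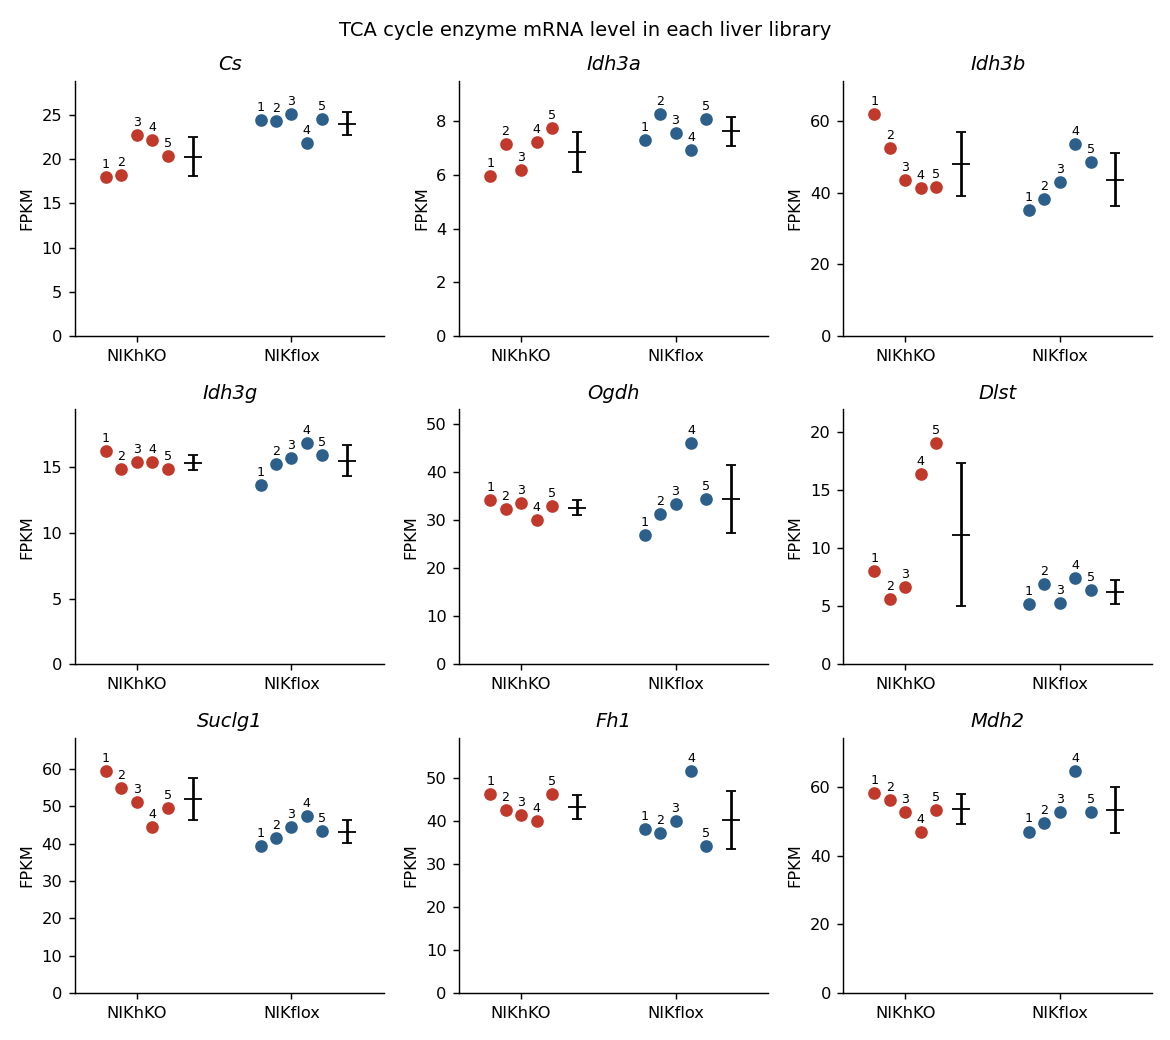
FPKM of each of the 9 TCA cycle genes (vertical axes from 0, one panel a gene) in each library, with NIKhKO on the left and NIKflox on the right; numbers are replicate numbers, and bars are the mean and SD of 5 libraries. The groups overlap in every panel, and the Dlst points of NIKhKO 4 and 5, at 16.4 and 19.1 FPKM, stand above all others.

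Levels per length covered a 7.39-fold range between the highest and the lowest gene mean over the 10 libraries. The order was Mdh2 (53.4 FPKM), Suclg1 (47.6), Idh3b (45.9), Fh1 (41.7), Ogdh (33.5), Cs (22.2), Idh3g (15.4), Dlst (8.70) and Idh3a (7.23 FPKM). Ogdh was above Cs, and Cs above Idh3g, in 10 of 10 libraries with ranges that did not overlap. The ranges of the other neighbours in this order overlapped. Dlst was above Idh3a in 4 of 5 NIKhKO libraries and in 1 of 5 NIKflox libraries.

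Cs encodes citrate synthase, which joins acetyl-CoA to oxaloacetate and so opens the cycle. The gene lies at chr10:128337734-128362479 on the plus strand (GRCm38, as for all positions given). Its level was 18.0, 18.2, 22.7, 22.2 and 20.4 FPKM in NIKhKO livers, against 24.4, 24.3, 25.1, 21.8 and 24.6 FPKM in NIKflox livers. In FPKM the groups overlapped through NIKflox 4, the lowest NIKflox library, and 3 of 5 NIKhKO libraries lay under all NIKflox libraries. The overlap was wider on TMM-scaled counts set to a common library total. There NIKhKO 3 (154.1) lay above NIKflox 2, 3, 4 and 5 (153.2, 151.9, 127.3 and 153.8). Only NIKhKO 1 and 2 (114.2 and 111.3) lay under all NIKflox libraries on that scale. The means were 20.3 ± 2.20 FPKM in NIKhKO and 24.0 ± 1.27 FPKM in NIKflox (SD, n = 5 each). On TMM-scaled counts Cs had a log2 fold change of −0.18 (SE 0.11; unadjusted p 0.13, edgeR adjusted p = 0.66). With scaling by library totals alone the log2 fold change of Cs was −0.25 (unadjusted p 0.019, edgeR adjusted p = 0.36). It passed on neither scaling.

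The 3 subunits of NAD-dependent isocitrate dehydrogenase, which oxidises isocitrate to 2-oxoglutarate, had separate profiles. Idh3a encodes the catalytic alpha subunit, and Idh3b and Idh3g encode the beta and gamma subunits, which regulate it. They lie at chr9:54586334-54604661 (plus strand), chr2:130279309-130284547 (minus) and chrX:73778963-73786897 (minus) in that order. Idh3a read 5.95, 7.13, 6.17, 7.21 and 7.74 FPKM in NIKhKO livers, against 7.29, 8.25, 7.54, 6.92 and 8.07 FPKM in NIKflox livers. Idh3b read 61.8, 52.3, 43.4, 41.2 and 41.5 FPKM in NIKhKO livers, against 35.0, 38.1, 43.1, 53.5 and 48.5 FPKM in NIKflox livers. Both genes overlapped in part. For Idh3a, NIKhKO 1 and 3 lay below all NIKflox libraries. For Idh3b, NIKhKO 1 lay above all NIKflox libraries, and NIKflox 1 and 2 lay below all NIKhKO libraries. Idh3g was the steadiest of the 9 genes, between 14.9 and 16.2 FPKM in NIKhKO and between 13.7 and 16.9 FPKM in NIKflox, with a coefficient of variation of 5.60% over the 10 libraries.

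None of the 3 passed the edgeR test. The log2 fold change was −0.09 (SE 0.10, adjusted p = 0.83) for Idh3a. It was 0.20 (SE 0.13, adjusted p = 0.67) for Idh3b, and 0.11 without NIKhKO 1. It was 0.05 (SE 0.07, adjusted p = 0.87) for Idh3g, whose 95% interval ran from 0.930-fold to 1.16-fold. The sign of Idh3g is not settled, since it turned negative with library totals as the scaling (−0.02).

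Ratios between subunits of one complex need no scaling between libraries and were compared by an exact two-sided permutation test over the libraries. The ratio of Idh3a to Idh3b was 0.0963, 0.136, 0.142, 0.175 and 0.186 in NIKhKO livers, against 0.208, 0.216, 0.175, 0.129 and 0.166 in NIKflox livers. Idh3a was far below Idh3b per length in every library, and the groups overlapped (exact permutation p = 0.19, adjusted p = 0.28 over 4 ratios). The ratio of Idh3a to Idh3g averaged 0.447 ± 0.0621 in NIKhKO and 0.494 ± 0.0523 in NIKflox (SD, n = 5 each), with an exact permutation p of 0.22 that became 0.28 over the 4 ratios. The ratio of Idh3b to Idh3g averaged 3.12 ± 0.509 in NIKhKO and 2.80 ± 0.295 in NIKflox (SD, n = 5 each), with an exact permutation p of 0.28 before and after adjustment.

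Ogdh and Dlst encode the first 2 components of the 2-oxoglutarate dehydrogenase complex, the decarboxylating dehydrogenase and the succinyltransferase that forms succinyl-CoA. They lie on the plus strands of chr11:6291633-6356642 and chr12:85110833-85134845. Ogdh read 34.2, 32.3, 33.6, 30.1 and 32.9 FPKM in NIKhKO livers, against 26.9, 31.4, 33.5, 46.2 and 34.4 FPKM in NIKflox livers. NIKhKO values lay within the NIKflox range, whose ends were NIKflox 1 and NIKflox 4. The log2 fold change of Ogdh was −0.01 (SE 0.11, adjusted p = 0.99), with a 95% interval from −0.25 to 0.24. Without NIKflox 4 it was 0.10 (adjusted p = 0.79).

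Dlst had the widest spread of the 9 genes, and that spread was carried by 2 livers. It read 8.03, 5.63, 6.69, 16.4 and 19.1 FPKM in NIKhKO livers, against 5.15, 6.91, 5.28, 7.44 and 6.43 FPKM in NIKflox livers. NIKhKO 4 and 5 were each over 2 times every other library, while NIKhKO 2 and 3 lay within the NIKflox range and NIKhKO 1 just above it. The log2 fold change of Dlst was 0.91 (SE 0.33; unadjusted p 0.017, edgeR adjusted p = 0.37). Without NIKhKO 4 and 5, a choice made after seeing the data, it was 0.18 (SE 0.16; unadjusted p 0.30, edgeR adjusted p = 0.83).

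Ogdh was not high in these 2 livers. The ratio of Dlst to Ogdh was 0.235, 0.174, 0.199, 0.545 and 0.579 in NIKhKO livers, against 0.192, 0.220, 0.158, 0.161 and 0.187 in NIKflox livers. Over all 5 against 5 this ratio did not pass (exact permutation p = 0.095, adjusted p = 0.28). Dld, which encodes the dehydrogenase that completes the complex, read 26.8 and 28.1 FPKM in NIKhKO 4 and 5, inside its range of 26.0 to 31.6 FPKM over the NIKflox libraries.

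The size of this gap was compared across the table. Among 10566 genes with a mean of at least 1 FPKM, the lower of the NIKhKO 4 and 5 values was divided by the highest of the other 8 libraries. Dlst had the largest quotient, 2.04, followed by the small nuclear RNA gene Gm22235 at 1.71 and the processed pseudogene Rpl7a-ps3 at 1.42. Since NIKhKO 4 and 5 were picked because Dlst was high there, this is a description with no test. Within 1000000 bases on either side of Dlst on chromosome 12, 26 genes had a mean of at least 0.5 FPKM, and for 0 of them were both livers above the other 8, the highest quotient being 0.966 for Mlh3. NIKhKO 3, 4 and 5 were also the libraries with the largest mitochondrially encoded share of counts, 12.2%, 12.8% and 11.6%. The share was 7.16% to 11.1% in the NIKflox libraries. Dlst read 6.69 FPKM in NIKhKO 3, and a link between this share and Dlst was not tested.

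Suclg1 encodes the alpha subunit of succinyl-CoA synthetase, shared by its ADP- and GDP-forming versions, which makes a nucleotide triphosphate in the cycle. It lies at chr6:73248382-73276911 on the plus strand. It read 59.4, 55.0, 51.3, 44.5 and 49.6 FPKM in NIKhKO livers, against 39.4, 41.6, 44.4, 47.3 and 43.3 FPKM in NIKflox livers. On this scale 4 of 5 NIKhKO libraries lay above all NIKflox libraries, and NIKhKO 4 lay within their range. On the scale of the gene test the same gene had 300.8, 269, 278, 232 and 261 TMM-scaled CPM (counts set to a common library total) in NIKhKO livers, against 204, 210, 215, 220 and 217 in NIKflox livers. There the ranges did not overlap, as for 2.11% of all genes tested in either direction and 1.24% with NIKhKO higher. Suclg1 was the only one of the 9 with ranges apart on this scale, and 0 of the 9 were apart in FPKM.

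Suclg1 had the smallest p of the 9 genes. Its log2 fold change was 0.33 (SE 0.08), or 1.26-fold with a 95% interval from 1.11-fold to 1.42-fold. The unadjusted edgeR p was 0.0019, which ranked 104 among all 12731 genes, and the adjusted p was 0.23. Leaving out each library in turn gave log2 fold changes from 0.29 to 0.38 with adjusted p-values from 0.11 to 0.47, and without NIKflox 2 and 4 the value was 0.34 (adjusted p = 0.41). With scaling by library totals alone the log2 fold change of Suclg1 was 0.26 (unadjusted edgeR p 0.022, adjusted p = 0.37). With a block for replicate number it was 0.33 (unadjusted edgeR p 0.016, adjusted p = 0.53). DESeq2 called Suclg1, as given above, at a log2 fold change of 0.34.

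**Figure D2:**
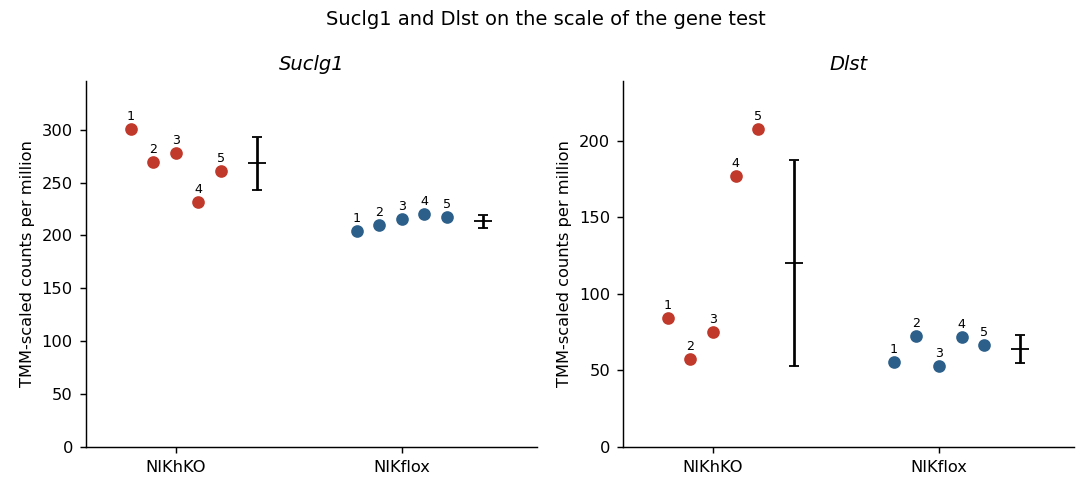
TMM-scaled CPM, counts set to a common library total (vertical axes from 0) of Suclg1 and Dlst in each NIKhKO library, left, and each NIKflox library, right, with replicate numbers and the mean and SD of 5 libraries. All 5 NIKhKO points of Suclg1 lie above the NIKflox points, while only NIKhKO 4 and 5, at 177 and 208, lie far above the NIKflox points of Dlst.

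The last 2 steps, hydration of fumarate and oxidation of malate back to oxaloacetate, are carried by Fh1 (chr1:175600374-175625635, minus strand) and Mdh2 (chr5:135778480-135790391, plus strand). Fh1 read 46.1, 42.4, 41.2, 40.0 and 46.2 FPKM in NIKhKO livers, against 37.9, 37.2, 39.9, 51.5 and 34.2 FPKM in NIKflox livers. Each NIKhKO library was above 4 of the 5 NIKflox libraries, and NIKflox 4 was above all NIKhKO libraries. The log2 fold change of Fh1 was 0.18 (SE 0.10, adjusted p = 0.61), and 0.26 without NIKflox 4 (unadjusted p = 0.010, adjusted p = 0.38). Fh1 overlaps Kmo, a gene of tryptophan breakdown on the other strand at a mean of 45.3 FPKM, over 5255 bases. The sources used here do not say whether counting used strand, so the level of Fh1 is uncertain.

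Mdh2 was the most abundant of the 9 mRNAs per length. It read 58.3, 56.2, 52.8, 46.9 and 53.3 FPKM in NIKhKO livers, against 47.0, 49.4, 52.8, 64.5 and 52.7 FPKM in NIKflox livers. The groups overlapped almost fully, with means of 53.5 ± 4.31 FPKM in NIKhKO and 53.3 ± 6.74 FPKM in NIKflox (SD, n = 5 each). The log2 fold change was 0.07 (SE 0.09, adjusted p = 0.84), with a 95% interval from −0.12 to 0.26.

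**Figure D3:**
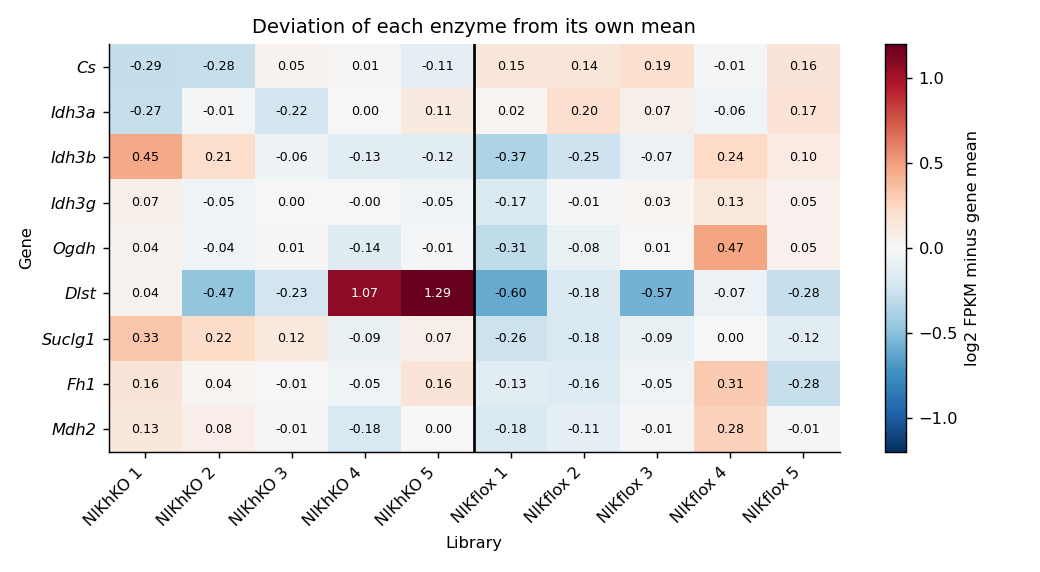
Deviation of log2 FPKM from the mean of each gene over the 10 libraries, with genes as rows and libraries as columns, NIKhKO left of the vertical line and NIKflox right of it; red is above and blue below the mean of the gene. Dlst in NIKhKO 4 and 5 stands out, NIKflox 1 is lowest for 5 of the 9 genes, and Cs and Suclg1 run in opposite directions.

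The lowest and the highest FPKM levels often fell in 2 livers of the same genotype. NIKflox 1 had the lowest level of 5 of the 9 genes, Idh3b, Idh3g, Ogdh, Dlst and Suclg1, and the lowest sum, 236.7 FPKM. NIKflox 4 had the highest level of 4, Idh3g, Ogdh, Fh1 and Mdh2, and the highest sum, 316.0 FPKM. On TMM-scaled counts NIKflox 4 was highest for Ogdh and Mdh2, while Idh3g was highest in NIKhKO 3 and Fh1 in NIKhKO 5. On that scale Dlst was lowest in NIKflox 3, and Idh3b, Idh3g, Ogdh and Suclg1 were lowest in NIKflox 1. The summed level was 283.0 ± 16.5 FPKM in NIKhKO and 268.1 ± 29.7 FPKM in NIKflox (SD, n = 5 each), so that the extremes were both NIKflox livers. In NIKflox 4 the median of all 12731 genes also lay 0.13 above its mean on the log2 FPKM scale, the same as the median of the 9 genes there (0.13). In NIKflox 1 the median of all genes lay at −0.02 and that of the 9 genes at −0.18. NIKflox 4 was the library with the most heart muscle RNA, and without NIKflox 2 and 4 edgeR called 0 of the 9 genes, with 3 (Dlst, Suclg1 and Fh1) and 8.23% of all genes at an unadjusted p below 0.05.

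Some of the 9 genes tracked each other across the 10 libraries, over 36 pairs compared on log2 FPKM. Ogdh and Mdh2 had a Pearson r of 0.89 (permutation p = 0.00067, adjusted p = 0.013) and a Spearman rho of 0.70 (permutation p = 0.030, adjusted p = 0.097). Without NIKflox 1 and NIKflox 4, the libraries farthest from the Ogdh median, r was 0.76, and on TMM-scaled counts over all 10 it was 0.82. Cs and Suclg1 were opposed, with r of −0.89 (permutation p = 0.00075, adjusted p = 0.013) and rho of −0.82 (permutation p = 0.0059, adjusted p = 0.053). Since both also lay apart in mean between the genotypes, r was taken again with the genotype means removed and was −0.75. It was −0.70 without NIKhKO 1 and 2, and −0.66 on TMM-scaled counts. Other pairs were more opposed on TMM-scaled counts, such as Cs and Idh3b (r of −0.77) and Idh3a and Idh3b (−0.72). Without NIKhKO 1 and 2, Cs and Dlst had an r of −0.83 on log2 FPKM. All pairs share the scaling of each library, and 4 pairs with positive r and 1 with negative r had an adjusted p below 0.05 for r, while 0 had one for rho.

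By the rule of highest Pearson correlation with the mean profile of the 9 genes, out of 3010 other genes with a mean of at least 10 FPKM, the most alike were Abcc3, Trap1, Yif1b, Entpd5 and Gna12. Their likeness over the 10 libraries ran from 0.95 for Abcc3 to 0.91 for Gna12. All 5 were highest in NIKflox 4 and lowest in NIKflox 1, and their genotype means were close, with Abcc3 at 50.9 FPKM in NIKhKO and 51.1 FPKM in NIKflox and Trap1 at 62.9 FPKM in NIKhKO and 62.2 FPKM in NIKflox. This likeness used log2(FPKM + 1) without TMM scaling. In NIKflox 4 the median of all genes also lay above its mean, as given above, and the part of library scaling in the likeness was not tested.

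**Figure D4:**
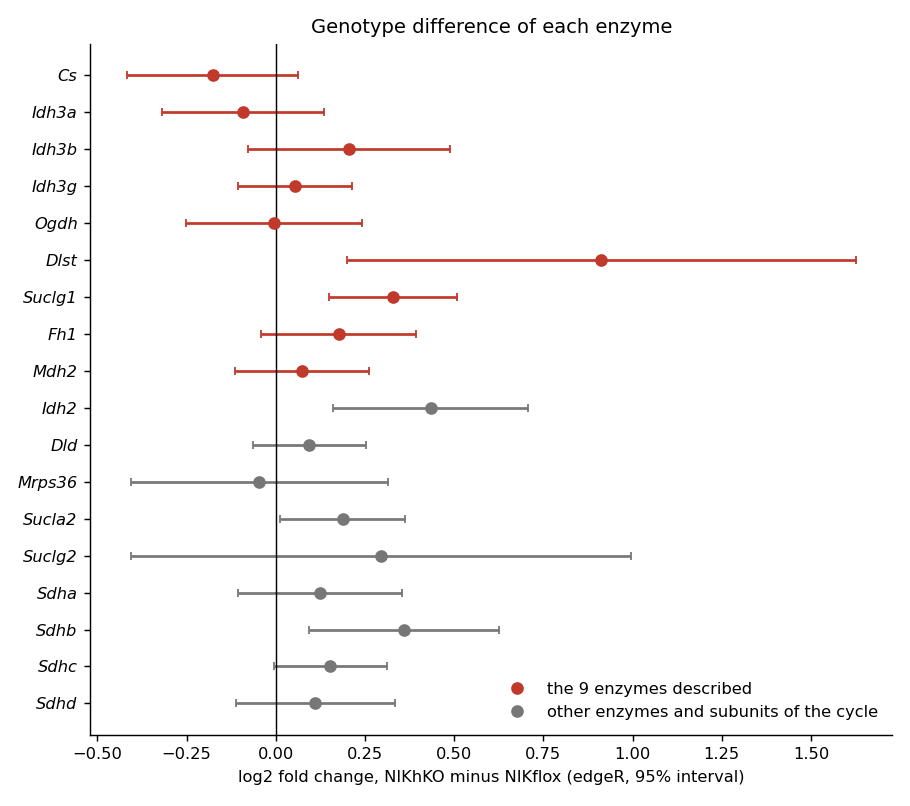
Log2 fold change, NIKhKO minus NIKflox, with its 95% interval from edgeR (horizontal axis) for the 9 genes (red) and for 9 other enzymes and subunits of the cycle (grey). Intervals that leave out 0 are those of Dlst, Suclg1, Idh2, Sucla2 and Sdhb, none of which passed after adjustment over all genes.

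Among 9 other enzymes and subunits of the cycle, 0 passed. Of these, 8 were positive, beside 48.2% of all genes, and the median log2 fold change was 0.15. At an unadjusted edgeR p below 0.05 there were 3, beside 10% of all genes. Idh2, the NADP-dependent mitochondrial isocitrate dehydrogenase, read 85.7, 81.8, 71.9, 58.1 and 71.7 FPKM in NIKhKO livers, against 46.9, 45.7, 65.0, 66.2 and 62.4 FPKM in NIKflox livers. The groups overlapped through NIKhKO 4, and the log2 fold change of Idh2 was 0.43 (SE 0.12, unadjusted p = 0.0050, adjusted p = 0.29). Sucla2, the beta subunit that gives succinyl-CoA synthetase its ADP-forming version with Suclg1, had 0.19 (SE 0.08, adjusted p = 0.47). Suclg2, the beta subunit of the GDP-forming version, varied most, from 25.6 to 65.1 FPKM in NIKhKO and from 22.9 to 54.7 FPKM in NIKflox, with a log2 fold change of 0.29 (SE 0.32, adjusted p = 0.83). The high Suclg2 levels of NIKhKO 3 and 5 and of NIKflox 1 and 5 did not recur in Suclg1.

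The 4 subunits of succinate dehydrogenase, which is also complex II of the respiratory chain, had log2 fold changes of 0.12 for Sdha, 0.36 for Sdhb, 0.15 for Sdhc and 0.11 for Sdhd, with adjusted p-values from 0.35 to 0.79. Dld had a log2 fold change of 0.09 (SE 0.07, adjusted p = 0.74). Mrps36, a small protein that links subunits of the 2-oxoglutarate dehydrogenase complex, was the 1 negative gene, at −0.05 (SE 0.16, adjusted p = 0.96). The 4 succinate dehydrogenase assembly factors had 1 positive and 3 negative values, a median of −0.15 and 0 called, and Sdhaf1 (log2 fold change −0.21) and Sdhaf3 (−0.18) had the smallest p-values.

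Feeder and neighbouring pathways also had 0 genes passing in either direction. Over all genes, 48.2% were positive and 10% had an unadjusted edgeR p below 0.05. Of 11 tested genes of the pyruvate dehydrogenase complex, its kinases and phosphatases and the pyruvate carrier, 5 were positive and 6 negative. Their median was −0.02, and 1 had an unadjusted edgeR p below 0.05. Pdk2, a kinase that switches the complex off, averaged 39.0 FPKM in NIKhKO and 31.5 FPKM in NIKflox (edgeR log2 fold change 0.38, adjusted p = 0.33), and Dlat, the acetyltransferase core, had 0.24. Of 18 tested refilling enzymes and cytosolic partners, 11 were positive, with a median of 0.14, and 7 had an unadjusted edgeR p below 0.05. Gls2, the liver glutaminase, read 123.9, 112.0, 98.5, 105.9 and 98.5 FPKM in NIKhKO livers, against 51.2 to 95.3 FPKM, with a median of 82.7 FPKM, in NIKflox livers. Each NIKhKO library was above each NIKflox library, as happened in either direction for 2.20% of all genes tested on the FPKM scale, and the edgeR adjusted p was 0.26. Fah, which releases fumarate in tyrosine breakdown, averaged 274.6 ± 16.3 FPKM in NIKhKO and 226.3 ± 15.1 FPKM in NIKflox (SD, n = 5 each, edgeR adjusted p = 0.26). Its ranges were also apart in FPKM, but narrowly, with NIKhKO 1 at 249.96 FPKM and NIKflox 1 at 249.38 FPKM. The TMM factors of these libraries, 0.9963 for NIKhKO 1 and 0.9727 for NIKflox 1, differ by more than this gap. The Fah ranges may therefore overlap on TMM-scaled counts.

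Of 7 tested relatives and cofactor enzymes of the 2-oxoacid dehydrogenases, 6 were positive with a median of 0.29. Dbt and Bckdhb, subunits of the branched-chain counterpart of the Ogdh and Dlst complex, had 0.44 (edgeR adjusted p = 0.26) and 0.29 (edgeR adjusted p = 0.33). Of 8 tested carriers of cycle metabolites, 5 were positive with a median of 0.18, and the smallest p-values were those of the dicarboxylate carrier Slc25a10 (log2 fold change 0.40, adjusted p = 0.43) and the 2-oxoglutarate carrier Slc25a11 (0.22, adjusted p = 0.55). Among nuclear genes of oxidative phosphorylation 71 of 76 were positive with a median of 0.13. Ndufs5 (log2 fold change 0.48) and Atp5g3 (0.28) had the smallest p-values, and 8 had an unadjusted p below 0.05. Among mitochondrial ribosomal protein genes 46 of 77 were positive with a median of 0.03, and Mrpl14 (log2 fold change −0.39) and Mrpl32 (0.33) had the smallest p-values. The 13 mitochondrially encoded mRNAs were all positive, with a median of 0.23, with the smallest p-values for mt-Co1 (log2 fold change 0.37) and mt-Nd6 (0.27), and 0 passed. The mitochondrially encoded share of counts was 10.8 ± 1.96% in NIKhKO and 9.38 ± 1.53% in NIKflox (SD, n = 5 each; exact permutation p = 0.25). Over all genes, 48.2% were positive and 10% had an unadjusted edgeR p below 0.05. At that p were 4 of the 7 relatives, 1 of the 8 carriers, 3 of the 77 mitochondrial ribosomal genes and 2 of the 13 mitochondrially encoded genes. No list was tested as a set, and genes of a list share libraries.

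Markers of other cells moved as follows beside these values, and their part in them was not tested. B cell markers (7 genes) summed to 6.65 to 16.1 FPKM in NIKhKO and 3.89 to 7.09 FPKM in NIKflox. Cholangiocyte markers (7 genes) summed to 16.1 to 27.6 FPKM in NIKhKO and 26.4 to 46.9 FPKM in NIKflox. Most of this sum was Spp1, at 14.1 to 23.5 FPKM in NIKhKO and 23.5 to 42.7 FPKM in NIKflox. Of the 7, 4 were tested, and these 4 had negative log2 fold changes with 0 called. Stellate cell markers (10 genes) summed to 78.4 to 109.8 FPKM in NIKhKO and 99.9 to 161.6 FPKM in NIKflox. The 9 tested had negative log2 fold changes, 1 of them at an unadjusted edgeR p below 0.05 and 0 called. Adipose markers (8 genes) summed to 3.69 to 6.25 FPKM in NIKhKO and 4.02 to 31.0 FPKM in NIKflox, with NIKflox 2 highest. Kupffer cell and macrophage markers (10 genes) summed to 150.1 to 220.7 FPKM in NIKhKO and 133.1 to 225.5 FPKM in NIKflox, and sinusoidal endothelial markers (10 genes) to 42.6 to 68.9 FPKM in NIKhKO and 60.0 to 73.9 FPKM in NIKflox. Log2 fold changes were positive for 9 and negative for 1 of the Kupffer and macrophage markers. They were positive for 2 and negative for 8 of the sinusoidal markers, with 0 called in both lists. Hepatocyte markers (9 of 10 found) summed to 45776 to 53166 FPKM in NIKhKO and 41558 to 56128 FPKM in NIKflox. The heart marker Actc1 was listed at the table's floor of 0.0001 FPKM in every library except NIKflox 2 (2.90 FPKM) and NIKflox 4 (10.4 FPKM). Another heart marker, Myh6, read 1.32 FPKM in NIKflox 2 and 7.44 FPKM in NIKflox 4. It also read 0.0352 FPKM in NIKflox 3 and 0.0414 FPKM in NIKflox 5, against 0.0001 FPKM in NIKflox 1. In NIKhKO libraries Myh6 ran from 0.0001 to 0.00425 FPKM.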

How the data were processed

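RNA of 10 livers (5 NIKhKO, 5 NIKflox) was taken through oligo(dT) beads, per the labels' protocols, and sequenced. One deposited table gave FPKM values and estimated counts per gene and library. Both were made by the authors, per the file headers. FPKM is scaled to length and library size, and the deposited estimated counts are whole numbers without normalization. Tools named, without roles, in the submitters' processing notes were edgeR, StringTie 1.3.4d, HISAT2 2.0.4 and cutadapt 1.9. The notes also name the human build hg38, although the gene identifiers are mouse. Of the identifiers 55141 were found in GENCODE M21 (GRCm38), with identical coordinates for 51957, so coordinates are read as GRCm38. On average 907 genes a library had an estimated count of 4, against 330.5 at 3 and 175.8 at 5. The source of this excess at 4 was not tested, and totals may overstate the number of fragments.

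Counts were tested with edgeR 4.0.16 (R 4.3.3; quasi-likelihood, TMM, two-sided, Benjamini-Hochberg over all genes) for genes with a mean of at least 0.5 FPKM, plus Map3k14. Adjusted p-values without another tool named are edgeR's. Each SE was taken as the size of the fold change (log2) over the root of F, and 95% intervals use the moderated t distribution. The test was tested on simulated data. Alternatives used other scalings and filters, DESeq2 1.42.0, limma 3.58.1 on log2(FPKM + 1) or log2(FPKM + 0.1), counts divided by 4, a block for replicate number, robust shrinkage, and fewer libraries. Subunit ratios were compared by exact permutation with scipy 1.17.1, and correlations used 100000 resamples. Outside the 9 genes, the text names Map3k14, every other cycle enzyme listed (1 further enzyme is not reported here), the 2 genes of smallest p in most other lists and the 5 most alike genes. Genes named in the comparison of NIKhKO 4 and 5 with the rest, Kmo and single markers were chosen after their values were seen. The genes and lists were chosen with earlier results of these data known.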

Additional observations from a re-analysis of the deposited data

Results flagged for a closer look

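Cs in NIKflox 4 lay far from the other 4 NIKflox libraries. It read 21.8 FPKM there, against 24.3 to 25.1 FPKM in the others, and the gap to its nearest neighbour was 0.759 of the range of the group, above the critical value of 0.710 for 5 samples. Of 26 groups of 5 values looked at (9 genes and 4 ratios in both genotypes) this was the 1 flagged, and chance flags about 1 group in 20. In the same library Ogdh, Mdh2, Fh1 and Idh3g were at their highest in FPKM, and of these only Ogdh and Mdh2 on TMM-scaled counts.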

How the results depend on the processing

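The 9 genes were refitted under 23 alternatives. DESeq2 called 1 of them (Suclg1), and 0 were called under each of the others. Of 207 refitted log2 fold changes 14 changed sign, all of Ogdh or Idh3g. Ogdh was 0.00023 with RLE size factors, 0.00081 with no filter, 0.0048 with filterByExpr, 0.00015 with DESeq2, 0.0071 with the replicate block, 0.10 without NIKflox 2 and 4 and 0.014 without NIKhKO 4 and 5, and −0.069 to 0.104 with 1 library left out. Idh3g was −0.018 with library totals and −0.0095 and −0.0099 with limma on log2(FPKM + 1) and on log2(FPKM + 0.1). The count of all genes called, 3 in the edgeR fit, was 9 with library totals, 207 with DESeq2, 0 with limma on either pseudocount, 6 with robust shrinkage, 1 without NIKflox 2 and 4, 1 without NIKhKO 4 and 5, and 0 to 24 with 1 library left out. The 4 subunit ratios kept their direction and kept adjusted p above 0.05 for 56 of 56 refitted values. The unadjusted exact p of Dlst to Ogdh was 0.032 without NIKhKO 2. Expression gave no sign that the replicate numbers pair the samples. Own-number correlations ran from −0.25 to 0.05, and 0 of 5 NIKhKO libraries correlated best with their own number. Shared litters, cages or preparation days cannot be read from these correlations. Why values moved was not tested. With the replicate block 2 of all genes and 0 of the 9 were called.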
